A study of Mus musculus with 15 samples.

Results

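The hippocampus of mice on dietary restriction (DR) was compared with the hippocampus of mice fed ad libitum (AL), gene by gene, with attention to the genes of neurons, glia, choroid plexus, vessels and blood. The comparison used 2 of the 15 libraries of the series, Hippocampus_40_DR and Hippocampus_AL, which were taken by their labels. All mice were male C57BL/6 animals, and the labels name no transgene or deletion in any group. The AL mice were 5 months old. The DR mice, also 5 months old, had received 40% less food for 1 month from 4 months of age. The third hippocampus library, DR-AL, came from mice of 7 months that went back to AL feeding after the same 1 month of DR, so refeeding and age cannot be told apart in it. Each library was made from RNA of 5 mice pooled before sequencing, so there was no replicate check of any difference below, and each test compares the reads of these libraries and not the diets.

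The AL hippocampus library held 40500130 counts on loci with a gene name, against 31224299 for DR and 25159857 for DR-AL. Of all 33603 deposited loci, 23589 carried a gene name, and 18559 of those had at least 1 count over the AL and DR libraries and were tested. A gene was called higher or lower when the Z test of the study, on square roots of counts divided by the library total with Poisson variance, gave a Benjamini-Hochberg adjusted p under 0.05 and the log2 fold change was at least 0.32 in size, the threshold of the study. Values are counts unless CPM (counts scaled to a total of 1000000 on named loci) is named. Log2 values are fold changes of the DR over the AL library, with 95% intervals that cover counting error only.

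The hippocampus is built of a few ordered populations of neurons. The granule cells of the dentate gyrus send axons to the pyramidal cells of CA3, which in turn project to CA1, and new granule cells are made in the dentate gyrus throughout life. Astrocytes, oligodendrocytes and microglia lie among them, and the choroid plexus, the epithelium that secretes cerebrospinal fluid, lies in the ventricle beside the hippocampus and is easily taken with it. Neuronal activity switches on immediate early genes, many of them transcription factors, within minutes and without new protein synthesis, largely through the factors CREB and SRF at their promoters.

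Promoters are shown for genes of both directions, from RefSeq on GRCm38.p6. The first set is of 3 immediate early genes that were higher in the DR library. Fosb lies at chr7:19309996-19310295 (minus strand), Egr2 at chr10:67537619-67537918 (plus strand, of 5 annotated windows the one with the most matches) and Nr4a3 at chr4:48045055-48045354 (plus strand). Capitals mark TGACG on either strand (CGTCA on the other), the core that CREB recognizes, and in Egr2 also a CArG box, the element of SRF.
Fosb: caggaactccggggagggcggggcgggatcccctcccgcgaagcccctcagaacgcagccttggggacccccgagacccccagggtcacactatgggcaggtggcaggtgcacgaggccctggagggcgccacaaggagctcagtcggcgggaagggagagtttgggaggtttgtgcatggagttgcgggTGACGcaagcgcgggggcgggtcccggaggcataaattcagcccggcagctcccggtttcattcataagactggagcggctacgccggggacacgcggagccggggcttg
Egr2: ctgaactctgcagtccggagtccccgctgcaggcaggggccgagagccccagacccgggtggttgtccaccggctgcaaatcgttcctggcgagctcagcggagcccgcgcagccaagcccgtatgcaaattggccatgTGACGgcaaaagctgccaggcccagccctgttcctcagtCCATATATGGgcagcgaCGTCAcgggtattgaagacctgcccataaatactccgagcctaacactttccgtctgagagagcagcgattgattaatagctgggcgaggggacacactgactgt
Nr4a3: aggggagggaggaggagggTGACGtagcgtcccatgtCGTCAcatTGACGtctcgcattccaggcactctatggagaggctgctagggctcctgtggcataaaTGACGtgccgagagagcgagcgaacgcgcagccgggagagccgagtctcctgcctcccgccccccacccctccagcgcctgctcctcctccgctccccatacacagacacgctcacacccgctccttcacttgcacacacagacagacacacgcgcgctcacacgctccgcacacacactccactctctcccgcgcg
The core TGACG occurred in 14 of the 18 immediate early genes that had a promoter window, or 77.8%, against 23.0% of all 27025 genes with one. It was found in 7 of 9 such genes that were called higher and in 7 of 9 that were not called, so its presence did not separate them. A CArG box was found in 1 of the 18, Egr2, and in 1.81% of all genes. These matches describe letters in a window and are not evidence of binding.

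The second set is of the alpha globin genes, which were lower in the DR library and share their reads. Hba-a1 lies at chr11:32283422-32283721 and Hba-a2 at chr11:32296242-32296541, both on the plus strand. Capitals mark GATAAG, searched on both strands, the letters bound by GATA factors of red cell precursors.
Hba-a1: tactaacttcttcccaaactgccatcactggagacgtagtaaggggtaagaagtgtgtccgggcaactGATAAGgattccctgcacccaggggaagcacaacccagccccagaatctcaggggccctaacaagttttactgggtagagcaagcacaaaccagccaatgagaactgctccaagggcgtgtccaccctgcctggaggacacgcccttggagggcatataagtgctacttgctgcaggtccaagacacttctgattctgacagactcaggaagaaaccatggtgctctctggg
Hba-a2: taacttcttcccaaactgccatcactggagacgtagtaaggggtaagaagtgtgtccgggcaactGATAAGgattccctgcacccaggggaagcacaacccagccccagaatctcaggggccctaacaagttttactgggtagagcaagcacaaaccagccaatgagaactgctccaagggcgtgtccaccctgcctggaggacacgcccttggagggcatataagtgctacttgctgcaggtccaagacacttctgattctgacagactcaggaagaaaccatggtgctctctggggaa
The windows had 297 identical bases over an alignment of 303 bases. GATAAG was found in 7 of the 10 red cell genes with a window and in 8.58% of all genes.

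In the whole comparison 760 of 18559 genes were called, or 4.10%. Of these, 257 (1.38% of the genes tested) were higher in the DR library and 503 (2.71%) were lower. The median log2 over all genes tested was -0.01, and a list is read against these values. The calls rest on counting error alone. When the exact test of edgeR was run with an assumed coefficient of variation of 0.1 between samples, 8 loci remained, namely Scd1, Slc4a5, both Hba-a1/Hba-a2 loci, Beta-s (a beta globin), Mup20 and Mat1a lower and Fosb higher. For Scd1 a measured 0 and a gap in the deposited values cannot be told apart, as described below. Of the 760 genes 152 had a mean under 10 counts, and for 79 the exact interval of the ratio included no change, so calls on few counts are weak. On the deposited FPKM scale with a pseudocount of 0.1, the median of 15312 genes averaging 10 counts or more was 0.11, a shift of 0.12 from the count scale. Past the same fold, with no test, 1474 of these genes were higher and 629 lower on the FPKM scale, a share of 70.1% higher. By the same rule on the count scale, an alternative chosen after seeing the data, 718 were higher and 1270 lower, a share of 36.1%, against 33.8% of the 760 calls. The list directions below are those of the counts, and small ones change with this shift.

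**Figure D1:**
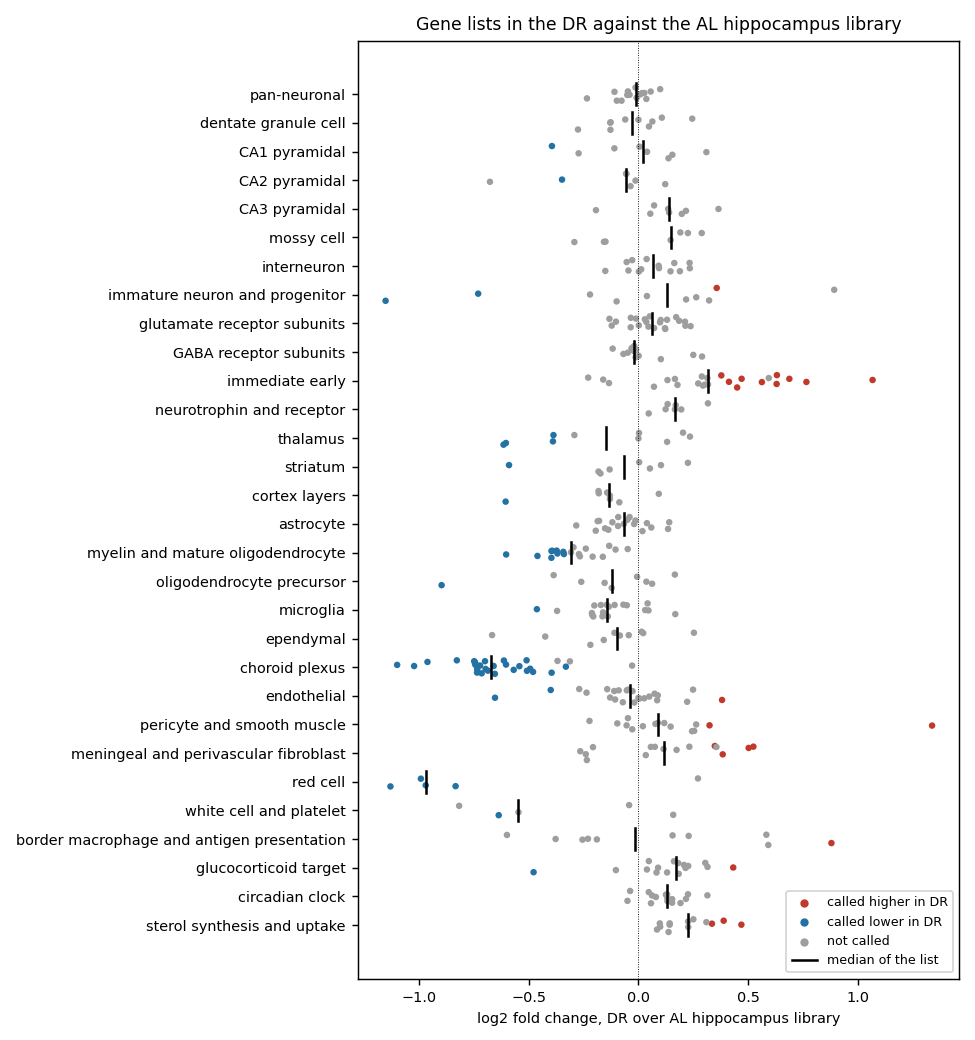
Log2 fold changes, DR over AL hippocampus library, of the members of 30 gene lists that averaged 10 counts or more, with 1 point per gene and a bar at the median of each list. Choroid plexus and red cell genes lie to the left and immediate early genes to the right, while pan-neuronal genes lie close to 0.

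Neuronal identity genes differed little between the libraries. None of the 15 pan-neuronal genes was called, and their summed level was 15764 CPM in the AL, 15611 in the DR and 15309 in the DR-AL library. Rbfox3, which encodes the neuronal marker NeuN, had 12215 counts in the AL and 9654 in the DR library, a log2 of 0.04 (interval -0.00 to 0.07). Snap25, a protein of synaptic vesicle release, had a log2 of -0.05, and Tubb3, a neuronal tubulin, was the lowest of the list at -0.23. The list median was -0.01, and on the FPKM scale 0.11, that is, level with the median of all genes on either scale. The label of the tissue was checked on its own markers, which were present. Prox1, the factor that specifies granule cells, had 4713 and 3756 counts and Fibcd1, a CA1 gene, 5797 and 4974 counts in the AL and DR libraries.

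Among the subfield lists, no dentate granule cell gene of 10, no CA3 gene of 8, no mossy cell gene of 7 and no interneuron gene of 14 was called. In CA2 1 gene of 7 was called lower, against 2.71% of all genes. It was Pcp4, a calmodulin-binding peptide, with 5268, 3190 and 3368 counts in AL, DR and DR-AL and a log2 of -0.35 (-0.41 to -0.28). On the FPKM scale it was -0.11, below the fold. On the count scale the medians of the CA1 and CA2 lists were 0.02 and -0.06. The Pvalb counts (1655 and 1149) cannot be read as those of parvalbumin interneurons, because the locus also carries Ift27.

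Receptors for the main transmitters were at similar levels on the count scale. None of 22 glutamate receptor subunits and none of 14 GABA receptor subunits was called, and the glutamate list ran from -0.13 (Grin2c) to 0.24. The highest value of that list was that of Grin2b, an NMDA receptor subunit, with 23504 counts in AL and 21363 in DR (0.21 to 0.26). Its counting interval lay above 0, but the difference was below the fold required. On the FPKM scale, with no test, 3 glutamate receptor subunits were past the fold with pseudocounts of 0.1 and 1. Of the GABA receptor subunits 2 were past it with 0.1 and 1 with a pseudocount of 1. All of these were higher in DR.

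Of the neurotrophins and their receptors none of 9 was called. Bdnf, brain-derived neurotrophic factor, had 2068, 1789 and 1347 counts in AL, DR and DR-AL, or 51.1, 57.3 and 53.5 CPM. Its log2 was 0.17 (0.07 to 0.26), above 0 by counting error but under the fold required; on the FPKM scale with a pseudocount of 0.1 it was 0.35 and past that fold. Ntrk2, which encodes the receptor of BDNF, had a log2 of 0.13 with 27345 and 23114 counts.

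Of 10 genes of immature neurons and progenitors 2 were called lower and 1 higher, against 2.71% and 1.38% of all genes. The proliferation genes Top2a (a topoisomerase of dividing cells) and Mki67 (the antigen Ki-67) were called lower. Top2a had 67, 23 and 27 counts in AL, DR and DR-AL, a log2 of -1.15 (-1.92 to -0.46), and Mki67 had 80, 37 and 39, a log2 of -0.73 (-1.34 to -0.16). Both were highest in the AL library, and both rest on few counts. Mki67 lost its call when the deeper library was thinned to the depth of the other and was below the fold on the FPKM scale (-0.27 with a pseudocount of 0.1), and Top2a was below it with a pseudocount of 1 (-0.13). Dcx, the microtubule protein of migrating young neurons, had 663 and 477 counts and a log2 of -0.10 (-0.27 to 0.07) and was not called. Sox11, a transcription factor of young neurons, was called higher, with 629 and 621 counts and a log2 of 0.36 (0.19 to 0.52), and lost the call when the deeper library was thinned. Draxin, an axon guidance protein, had 27 and 39 counts and a log2 of 0.89 (0.16 to 1.67) and was not called.

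Immediate early genes were the largest group of higher calls among the lists. Of 24 genes 10 were called higher, against 1.38% of all genes, and none lower, with a list median of 0.32. Fosb, an AP-1 subunit whose truncated form builds up with repeated activity, had 326, 527 and 398 counts, or 8.05, 16.9 and 15.8 CPM. Its log2 was 1.07 (0.87 to 1.27), and both the DR and the DR-AL level lay above the AL level. Egr2, a zinc finger transcription factor, had 144, 189 and 64 counts, so it was highest in DR and lowest in DR-AL, with a log2 of 0.77 (0.45 to 1.09).

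Fosl2, another AP-1 subunit, had 1965, 2440 and 1672 counts and a log2 of 0.69 (0.60 to 0.77). Egr4 (741, 884 and 606 counts) and Gadd45b (391, 467 and 295), the latter a protein of DNA repair and demethylation, both had a log2 of 0.63. The remaining calls were Nr4a3 (an orphan nuclear receptor) at 0.56, Fos at 0.47, Npas4 (a factor that adjusts inhibitory synapses) at 0.45, Junb at 0.41 and Arc (a synaptic protein that moves AMPA receptors) at 0.38. Not every activity gene followed. Egr1, one of the most used markers of activity, had a log2 of 0.13 (0.08 to 0.19), and Ier2, Btg2 and Dusp1, genes that also answer to stress and growth signals, had values of -0.23, -0.16 and -0.13. The DR level was above both the AL and the DR-AL level for 19 of the 24 genes. At a fold of 1.5, 5 of the 24 were called higher. With a coefficient of variation of 0.1 assumed, Fosb was the 1 gene of the list that remained called.

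**Figure D2:**
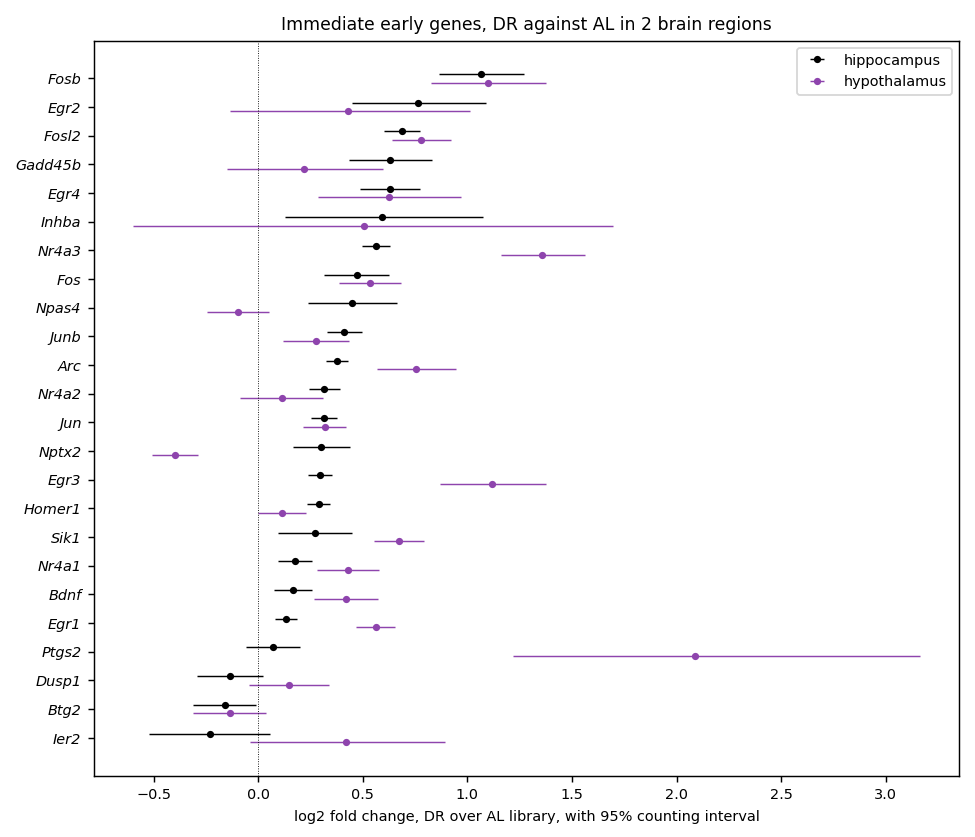
Log2 fold changes of 24 immediate early genes, DR over AL library, in the hippocampus (black) and the hypothalamus (purple), with bars for 95% counting intervals. In the hippocampus 21 genes lie above 0, from 0.07 to 1.07 for Fosb, and Ier2, Btg2 and Dusp1 lie below.

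Per the methods of the study, all tissues were harvested from the same groups of mice, so the regions are not independent sets of animals. The hypothalamus libraries of the same diets, made from another tissue, were set beside the hippocampus values. There 1364 of 19032 genes were called between DR and AL (7.17%), 836 higher (4.39%) and 528 lower (2.77%), and of the 24 immediate early genes 12 were called higher and 1 lower. Fosb had 157 and 371 counts there (1.10), Nr4a3 278 and 787 (1.36) and Npas4 716 and 739 (-0.10). The counting interval of the difference between regions included 0 for Fosb, lay below 0 for Nr4a3 and lay above 0 for Npas4. Over the list it lay below 0 for 10 genes and above 0 for 3.

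Glial genes were led by myelin. Of 19 genes of myelin and mature oligodendrocytes, 9 were called lower in the DR library, against 2.71% of all genes, and all 19 values were below 0 on the count scale, with a median of -0.31. Their summed level was 6961 CPM (AL), 5727 CPM (DR) and 6268 CPM (DR-AL). Aspa, which breaks down N-acetylaspartate in oligodendrocytes, had 942, 478 and 399 counts in AL, DR and DR-AL and a log2 of -0.60 (-0.77 to -0.44), and its DR and DR-AL levels both lay below that of AL. Opalin, a membrane protein of mature oligodendrocytes, had 1162, 651 and 460 counts (-0.46).

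Other called genes of the list ranged from -0.40 to -0.34. Among them were Mog and Mobp, which encode myelin proteins, Olig2, the lineage transcription factor, Gjc3, a connexin, Cldn11, the tight junction protein of myelin, and Fa2h, which makes its hydroxylated lipids. Cldn11 had 5772, 3437 and 3206 counts and a log2 of -0.37 (-0.43 to -0.31). Mbp, myelin basic protein, had 118337 and 77253 counts and a log2 of -0.24, below 0 by counting error but under the fold required. Most of these calls stand close to that fold. At a fold of 1.5 only Aspa remained, and on the FPKM scale, where the median of the list was -0.19, 2 genes reached that of the study with a pseudocount of 0.1.

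**Figure D3:**
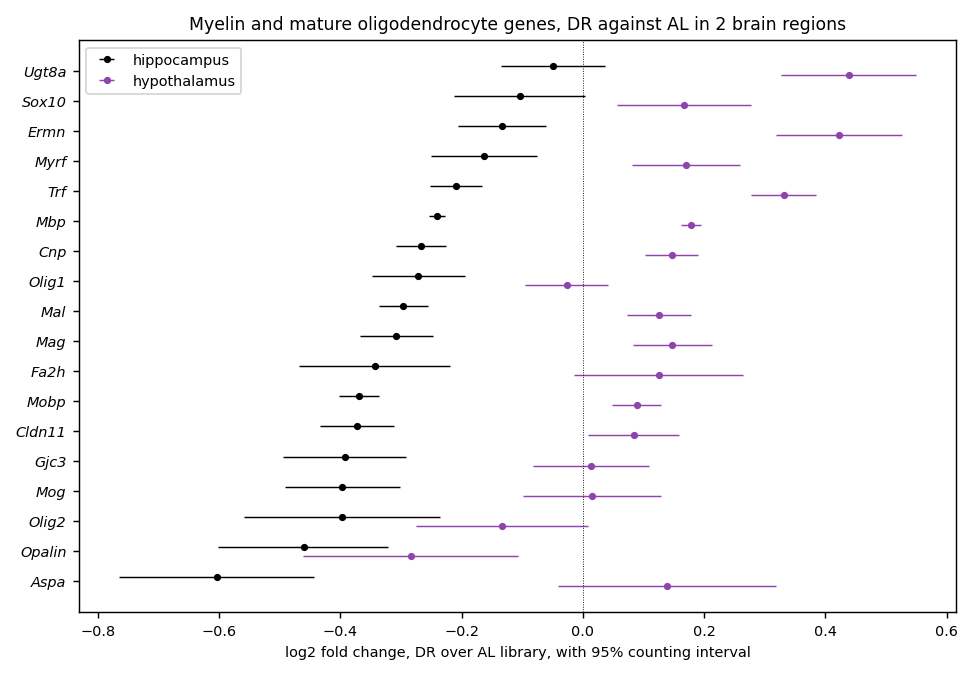
Log2 fold changes of 18 genes of myelin and mature oligodendrocytes, DR over AL library, in the hippocampus (black) and the hypothalamus (purple), with bars for 95% counting intervals. All 18 hippocampus values lie below 0, from -0.60 for Aspa to -0.05 for Ugt8a, and most hypothalamus values lie above 0.

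In the hypothalamus no gene of the myelin list was called lower and 3 were called higher (Trf, Ermn and Ugt8a), against 2.77% and 4.39% of all genes there. The median of the list was 0.13. The interval of the difference between the regions lay below 0 for 18 of the 19 genes, all but Opalin. This difference covers counting error only. Of 26 genes of neighbouring regions, 6 were called lower and none higher, against 2.71% and 1.38% of all genes. The list medians were -0.15 for the thalamus, -0.14 for the cortex and -0.06 for the striatum. Of 10 thalamus genes 4 were called lower in the DR hippocampus library: Ramp3 (191 and 96 counts, -0.61), Tcf7l2 (300 and 152, -0.60), Zic1 (1047 and 616, -0.39) and Slc17a6, the glutamate transporter of thalamic neurons (1612 and 950, -0.39). The summed level of the thalamus list was 190 CPM (AL), 165 CPM (DR) and 190 CPM (DR-AL). In the same order the striatum list summed to 113, 101 and 243 CPM and the cortex list to 363, 351 and 332 CPM. All 8 striatum genes were above the AL level in the DR-AL library. Of the cortex list, Foxp2 was called lower (170, 86 and 88 counts). On the FPKM scale Zic1, Slc17a6 and Foxp2 were below the fold with pseudocounts of 0.1 and 1, and Tcf7l2 with a pseudocount of 1. The part of the neighbouring regions in the myelin values was not tested. In bulk RNA, fewer cells of a type and less RNA per cell cannot be told apart.

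Of the oligodendrocyte precursor list of 9 genes, Enpp6, a choline phosphodiesterase of newly formed oligodendrocytes, was called lower, against 2.71% of all genes. It had 515, 213 and 207 counts and a log2 of -0.90 (-1.14 to -0.67). Pdgfra, the receptor that marks precursors, had 2663 and 2044 counts and a log2 of -0.01.

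None of 19 astrocyte genes was called, with a median of -0.07 that turned to 0.04 on the FPKM scale. Gfap, the intermediate filament that rises in reactive astrocytes, had 13336, 9079 and 7528 counts and a log2 of -0.18 (-0.22 to -0.14). Slc1a2, the main glutamate transporter, had 127010 and 99156 counts and a log2 of 0.02. Of 19 microglia genes P2ry13, a purine receptor, was called lower (558, 312 and 321 counts, -0.46), against 2.71% of all genes. The list median was -0.14. On the FPKM scale P2ry13 was at -0.31 and -0.24 with pseudocounts of 0.1 and 1, below the fold. Of the 19 values 15 were below 0, and the DR level was the lowest of the 3 hippocampus libraries for 14 genes. Cx3cr1, the fractalkine receptor, had a log2 of -0.21 and Tmem119 one of 0.17.

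Choroid plexus genes held the largest group of lower calls. Of 30 genes 27 were called lower in the DR library and none higher, against 2.71% of all genes lower. The list median was -0.67, and the summed level was 4882 CPM (AL), 3021 CPM (DR) and 4829 CPM (DR-AL). The DR level was the lowest of the 3 hippocampus libraries for 29 of the 30 genes. The genes not called were the keratins Krt8 and Krt18 and the sulfate transporter Slc13a4, with values from -0.37 to -0.03.

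Ttr, which encodes transthyretin, the carrier of thyroxine in cerebrospinal fluid, had 109059, 51236 and 65481 counts, or 2693, 1641 and 2603 CPM. The DR level stood well below both others, with a log2 of -0.71 (-0.73 to -0.70). Enpp2, the enzyme autotaxin, had 55031, 25251 and 34074 counts and a log2 of -0.75 (-0.77 to -0.73). Kl, klotho, a coreceptor of FGF23 that is abundant in this epithelium, had 3909, 2160 and 2705 counts, or 96.5, 69.2 and 108 CPM, and a log2 of -0.48 (-0.56 to -0.40).

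The lowest values were those of Slc4a5, Steap1 and Rdh5. Slc4a5, a sodium bicarbonate cotransporter of the apical membrane, had 968, 348 and 738 counts and a log2 of -1.10 (-1.28 to -0.92). Steap1 had 214, 81 and 122 counts (-1.02), and Rdh5, a retinol dehydrogenase, 291, 115 and 174 (-0.96). In the DR-AL library their log2 values against AL were 0.30, -0.12 and -0.06. Other ion and water transport genes had values of -0.83 (Kcnj13, a potassium channel), -0.61 (Aqp1, a water channel, at a locus shared with Fam188b) and -0.60 (Kcne2, a channel subunit).

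The growth factor genes of the list differed least among the called members. Igf2, which the choroid plexus and the meninges secrete, had 6723, 4121 and 3986 counts and a log2 of -0.33 (-0.39 to -0.27), and Igfbp2, its binding protein, 1978, 1159 and 1211 counts (-0.40). On the FPKM scale Igf2 was below the fold with pseudocounts of 0.1 and 1. Otx2, the transcription factor that specifies the epithelium, had 395, 214 and 302 counts (-0.51). With a fold of 1.5 required, 19 of the list were called, and with a coefficient of variation of 0.1 assumed, 1 (Slc4a5).

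**Figure D4:**
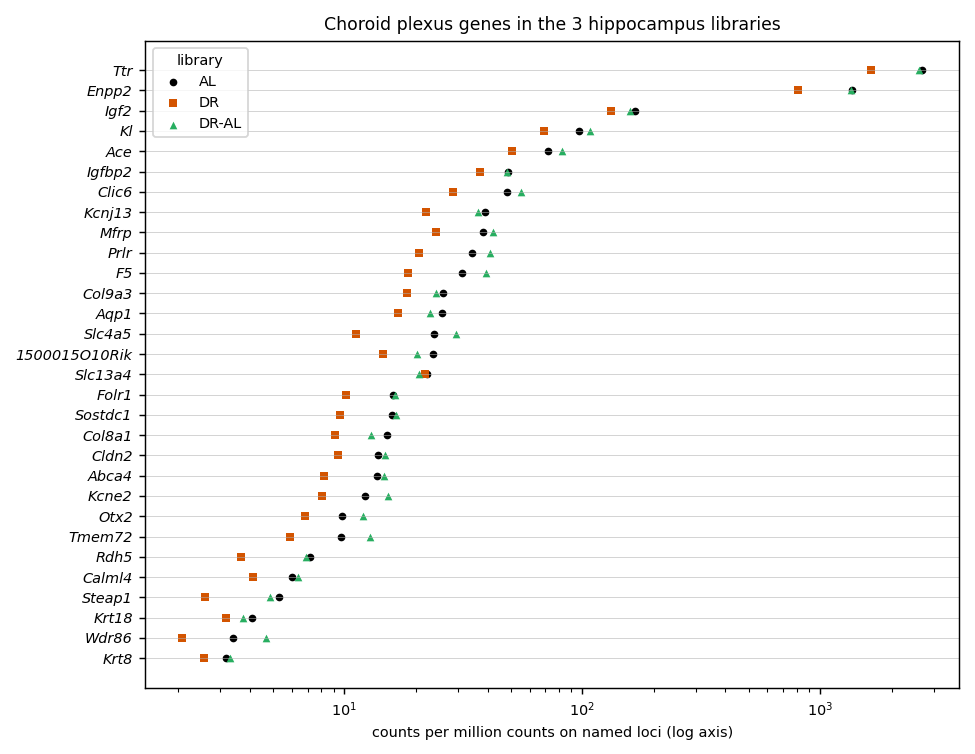
Level of 30 choroid plexus genes in the AL, DR and DR-AL hippocampus libraries, in CPM on a log axis, with 1 point per library. The DR point lies to the left of both others for 29 of the 30 genes, by a median log2 of -0.67 against AL.

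The list stood out from its neighbours in the ventricle. None of 10 ependymal genes, those of the ciliated cells that line the ventricle, was called, with a median of -0.10 and summed levels of 72.0, 69.5 and 66.5 CPM. Foxj1, the master gene of motile cilia, had 566 and 391 counts and a log2 of -0.16 (-0.35 to 0.03). In the hypothalamus, where the choroid plexus list summed to 482, 621 and 425 CPM in the same order of diets, 4 of the 30 genes were called higher and 3 lower. Of all genes there 4.39% were called higher and 2.77% lower. Ttr had 124 and 82 counts there and was called lower, with a log2 of -0.74 and a difference between regions of 0.02 (-0.38 to 0.42). The interval of the difference between regions lay below 0 for 22 of the 30 genes and above 0 for 1 (Krt8). The amount of choroid plexus taken with each hippocampus is not given by the labels, and it and the level per cell cannot be told apart.

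Of 54 vascular loci tested 7 were called higher and 2 lower, against 1.38% and 2.71% of all genes. Of 24 endothelial genes 2 were called lower, Ctla2a (235, 115 and 182 counts, -0.65) and Cldn5, the tight junction protein of the blood-brain barrier (938, 548 and 810 counts, -0.40), and 1 higher, the adhesion molecule Esam (487, 489 and 323 counts, 0.38). On the FPKM scale Cldn5 was at -0.31 with a pseudocount of 0.1 and at -0.30 with 1, below the fold. The list median was -0.04, and Pecam1 and Kdr, general endothelial markers, had values of -0.02 and 0.00. The summed level of the list was 631 CPM in AL and 630 in DR.

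Of 15 genes of pericytes and smooth muscle 2 were called higher, Abcc9, a subunit of the pericyte potassium channel (346 and 334 counts, 0.32), and Cnn1, calponin of smooth muscle (13 and 26 counts, 1.34). Abcc9 lost its call when the totals left out the 10 most abundant genes, and Cnn1 when the deeper library was thinned. Of 15 genes of meningeal and perivascular fibroblasts 4 were called higher, against 1.38% of all genes. Dcn, the matrix proteoglycan decorin, had 2229, 2434 and 1877 counts and a log2 of 0.50 (0.42 to 0.59). Ogn, another small proteoglycan, had 423, 469 and 330 counts (0.52), and Fmod and Aldh1a2, a retinoic acid enzyme of the meninges, had values of 0.35 and 0.38. None of these 4 was called at a fold of 1.5. Col1a1, the main collagen, had 227 and 182 counts and a log2 of 0.06 (-0.23 to 0.34). In the hypothalamus 14 of the 15 fibroblast genes were called higher, against 4.39% of all genes there. Their summed levels were 172, 359 and 85.7 CPM for AL, DR and DR-AL.

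Hemoglobin genes and Alas2 were lower in the DR library. Of 13 red cell loci tested, 5 averaged 10 counts or more and 4 were called lower, against 2.71% of all genes. Both Hba-a1/Hba-a2 loci, which carry the alpha chain of hemoglobin, had 1076, 417 and 314 counts and 631, 222 and 206 counts in AL, DR and DR-AL, with log2 values of -0.99 and -1.13. The Hbb-b1/Hbb-b2 locus of the beta chain had 539, 212 and 164 counts (-0.97). Beta-s, the most counted globin locus, is not in the red cell list and was named as one of the 10 largest lower differences. It had 3800, 1468 and 1224 counts (-0.997).

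Alas2, the first enzyme of heme synthesis in red cell precursors, had 220, 95 and 72 counts and a log2 of -0.83 (-1.20 to -0.48). In CPM the AL library was the highest at each of these loci, and the DR and DR-AL libraries were close to each other. Reads at the Hba-a1/Hba-a2 and Hbb-b1/Hbb-b2 loci cannot be assigned to 1 gene with certainty, because each locus carries both names. Ermap, on red cell membranes, had 30 and 28 counts, and the other 8 loci had at most 8 counts in either library, so differences there were not detectable at this depth.

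The AL library was the highest in the hypothalamus too. The summed level of the red cell list, which leaves out Beta-s, was 61.9, 31.7 and 31.1 CPM in the AL, DR and DR-AL hippocampus and 115, 58.4 and 38.2 CPM in the hypothalamus, where the same 4 loci were called lower with values from -1.08 to -0.67. Of all genes tested in the hypothalamus 2.77% were called lower. Beta-s alone had 93.8, 47.0 and 48.6 CPM in the hippocampus and 144, 78.5 and 56.1 CPM in the hypothalamus. The interval of the difference between regions included 0 for all 4 loci of the list and lay just below 0 for Beta-s (-0.12, from -0.23 to -0.0040). How much blood each pool held was not measured, and a cell count and the level per cell cannot be told apart.

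**Figure D5:**
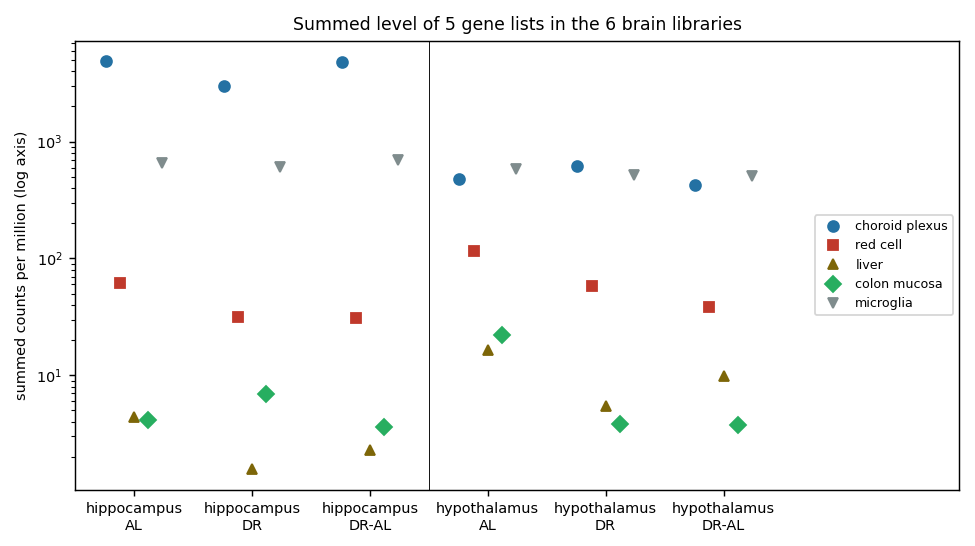
Summed level of 5 gene lists in the 6 brain libraries, in CPM on a log axis, with 1 point per library and list, shifted sideways for legibility. Red cell genes are highest in the AL library of both regions, choroid plexus genes are lowest in DR among the 3 hippocampus libraries, and microglia genes stay between 505 and 691.

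White cells were near the limit of detection. Of 19 white cell and platelet loci tested, 5 averaged 10 counts or more, and Lyz2, lysozyme of macrophages and neutrophils, was called lower (321, 159 and 187 counts, -0.64). Of all genes 2.71% were called lower and 1.38% higher. Ptprc, the pan-leukocyte antigen CD45 that microglia also carry, had 131 and 69 counts and a log2 of -0.55 (-0.99 to -0.12) and was not called. The T cell genes Cd3d and Cd3e had at most 3 counts. Of 10 genes of border macrophages and antigen presentation, Lyve1 was called higher on few counts (35, 50 and 28 counts, 0.88), a call that was lost when the deeper library was thinned.

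Of 44 loci of the lists of systemic responses 4 were called higher and 1 lower, against 1.38% and 2.71% of all genes. Of 16 glucocorticoid targets Errfi1 was called higher (1950 and 2028 counts, 0.43) and Plin4 lower (553 and 306 counts, -0.48). On the FPKM scale Plin4 was at -0.26 with a pseudocount of 0.1 and at -0.17 with 1, below the fold. Fkbp5, a chaperone of the glucocorticoid receptor, had a log2 of 0.23 (0.15 to 0.30), and the list median was 0.17. None of 16 circadian clock genes was called, although 14 had values above 0. Dbp, an output gene of the clock, had 1256, 1204 and 585 counts and a log2 of 0.31, the highest of that list. The time of day at which the tissues were taken was not used here, and its part was not tested.

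Of 13 genes of sterol synthesis and uptake tested, 3 were called higher, against 1.38% of all genes. They were Idi1 (2086, 2226 and 1284 counts, 0.47), Cyp51 (2649, 2673 and 1707 counts, 0.39) and Msmo1 (under the name Sc4mol, 0.33), which are steps from isoprenes to cholesterol. Msmo1 was not called with the deeper library thinned, and none of the 3 was called at a fold of 1.5. All 13 values were above 0 on the count scale, from 0.08 to 0.47, and the DR level was the highest of the 3 hippocampus libraries for each. Sqle, squalene epoxidase, had a log2 of 0.31 (0.23 to 0.39) and was not called.

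The largest difference among called genes that averaged 100 counts or more was that of Scd1 (chr19:44394450-44407709 on GRCm38), stearoyl-CoA desaturase 1, which makes monounsaturated fatty acids. The AL, DR and DR-AL hippocampus libraries had 8533, 0 and 5683 counts of it. Against a floor of 3 counts it was at least 2193-fold lower in DR. The gene was at 0, in counts and FPKM, in all 5 DR libraries of the series, including fat and liver, and had from 1252 to 756056 counts in the 10 other libraries. It was the only named locus at 0 in the DR hippocampus with at least 100 counts in both other hippocampus libraries. Scd2, the desaturase of brain, had 68165, 52133 and 44105 counts, or 1683, 1670 and 1753 CPM. A measured 0 and a gap in the table cannot be told apart from these files.

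The 10 largest differences in each direction were taken among called genes that averaged 100 counts or more. Higher in DR were Fosb, Egr2 and Fosl2 of the immediate early list and, from none of the lists, Itih2, Bves, Eps8l1, Fam46a, Dio3, C2cd4b and Trmt44. Dio3, the enzyme that inactivates thyroid hormone, had 119, 152 and 168 counts. Lower in DR were Scd1, Slc4a5, Steap1, Rdh5, Enpp6, the globin loci and 1110059M19Rik (254, 102 and 133 counts). Actb, a reference gene, had 49887 and 34862 counts and a log2 of -0.14, and was not called. Rn45s, the precursor of ribosomal RNA that the depletion step leaves in part, had 242699 and 141451 counts and a log2 of -0.40.

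Lists of genes of liver, colon mucosa, fat and testis were also measured. Of their 33 loci tested 2 were called higher and 5 lower, against 1.38% and 2.71% of all genes. The liver list summed to 4.42, 1.57 and 2.31 CPM in the AL, DR and DR-AL hippocampus, with Mup20 (33, 1 and 0 counts), Ahsg (15 and 1) and Fgb (7 and 0) called lower, and to 16.4, 5.44 and 9.90 CPM in the hypothalamus. The colon mucosa list summed to 4.17, 6.95 and 3.62 CPM, with Lypd8 (54, 78 and 21 counts) and Muc2 (19, 42 and 11) called higher. Adipoq (4 and 0 counts) and Car3 (28 and 4) of the adipose list were called lower, while the list summed to 56.7, 62.9 and 56.4 CPM. The exact interval for Adipoq included no change. With a mean of 10 counts required, Ahsg, Fgb and Adipoq drop out. Of 8 testis and epididymis genes 5 were tested and none was called. The part of such RNA in the blood values was not tested.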

How the data were processed

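RNA from 5 mice per tissue and diet was pooled by the authors, depleted of ribosomal RNA and sequenced in pairs. Per the methods, reads were trimmed, aligned by strand to mm10 with Strand software, and duplicates removed; the submitters' processing notes name mm9 and DESeq2. Positions in the table overlapped RefSeq genes of GRCm38 for 13.6% of 21161 matched symbols, so coordinates are those of RefSeq. The authors deposited whole-number counts and FPKM values per locus; how the FPKM values were scaled between libraries is not given in the sources used here.

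The Z test used counts as deposited, the totals of named loci and no filter beyond 1 count. Log2 fold changes used counts scaled to the mean total of both libraries plus 0.5; intervals are exact Clopper-Pearson intervals. The Z test was tested on simulated data and is liberal for genes with a mean under 10 counts. Fold, filter, scaling, thinning, FPKM and edgeR (version 4.0.16, R 4.3.3) alternatives were run, with Python 3.11.15.

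The 34 gene lists (467 entries) and the comparison were chosen with earlier results of these data known. Named genes are list members, the 10 largest differences in each direction among called genes averaging 100 counts or more, and Actb, Bdnf, Kl and Ttr. Mat1a, Rn45s and Scd2 were named after their values were seen. A member with several loci took the most counted one, and 14 members lie on loci with more than 1 gene name. Members without a tested locus were left out of the counts, and a few members are not reported here.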

Additional observations from a re-analysis of the deposited data

Results flagged for a closer look

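Genes of the lists were flagged where they were called in opposite directions by DR in the hippocampus and the hypothalamus. Over all genes 156 were called in both regions, 35 of them in opposite directions, and 6 of those were in the lists. Each difference below is the hippocampus minus the hypothalamus log2 fold change, with counting error as its only error, and with 1 library per group it was not tested over replicates.

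In the choroid plexus list the difference was -2.33 for Kcnj13, -1.92 for Igfbp2 and -1.74 for Igf2, each lower in the DR hippocampus and higher in the DR hypothalamus. It was -1.91 for Zic1 of the thalamus list. The hippocampus calls of Igf2, Igfbp2 and Zic1 were lost at a fold of 1.5. On the FPKM scale the hippocampus differences of Igf2 and Zic1 were below the fold with pseudocounts of 0.1 and 1. Igf2, Igfbp2 and Zic1 are also expressed in the meninges, and the list of meningeal and perivascular fibroblasts summed to 172 CPM in the AL and 359 CPM in the DR hypothalamus. Its part in these values was not tested.

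The colon genes went the other way, with 5.30 for Lypd8 and 3.21 for Muc2. Lypd8 had 54 and 78 counts in the AL and DR hippocampus and 278 and 14 in the AL and DR hypothalamus, and Muc2 had 19 and 42 against 111 and 37.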

How the results depend on the processing

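The number of called genes, 760, fell to 399 at a fold of 1.5 (102 higher, 297 lower), to 246 at a fold of 2 (62 higher, 184 lower) and to 8 in the exact test of edgeR at an assumed variation coefficient of 0.1 (1 higher, 7 lower; 463 at an unadjusted p under 0.05). The FPKM alternatives had no test and counted, among the 15312 genes averaging 10 counts or more, those past the fold. They gave 2103 with a pseudocount of 0.1 (1474 higher, 629 lower) and, with a pseudocount of 1, 489 higher and 131 lower genes. The same rule on the counts, chosen after seeing the data, gave 1988 (718 higher, 1270 lower). Thinning of the deeper library, size factors of DESeq, a minimum mean of 10 counts and totals that leave out the 10 most abundant genes gave from 645 to 766.

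On the FPKM scale with pseudocounts of 0.1 and 1 the median was 0.11 and 0.11 for pan-neuronal genes, 0.044 and 0.044 for astrocyte genes and -0.19 and -0.19 for myelin genes. In the same order it was 0.49 and 0.44 for immediate early genes and -0.54 and -0.38 for choroid plexus genes. The red cell median was -0.97 over genes that averaged 10 counts or more, since 8 barely counted loci then leave the list. Under other scalings, 396 values were taken of called list members, the 10 largest differences in each direction, Actb, Bdnf, Kl, Ttr and Rn45s. Of these, 54 lost the call, 1 (Bdnf) gained it and none reversed. All but Actb and Bdnf were called on the counts, so no other gene could gain a call. List members not called were left out. With an FPKM pseudocount of 0.1 and no test, 18 of 24 immediate early and 8 of 13 sterol genes were past the fold as higher, and none as lower. Of 156 medians of the other 26 lists, 19 moved.

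No leave-one-out value and no replicate spread exist with 1 pooled library per group. No paired analysis was possible because each group has 1 library. Of the tested loci, 8 of 13 in the red cell list and 14 of 19 in the white cell list averaged under 10 counts.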
